A study of Sus scrofa with 4 samples.

Results

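Of the 8623 circRNAs listed for porcine subcutaneous preadipocytes, 265 (3.07%) had no same-strand host gene: no annotated mRNA or lncRNA gene on the strand of the circRNA contained both of its ends. The rule that picked these 265 from the listed circRNAs used position alone, though it was set with earlier results of these data known. A circRNA was listed only with at least 2 junction reads. They fell into 4 classes. In 45, each end lay in a different same-strand gene, and these are called circRNAs across 2 genes. In 84, 1 end lay in a same-strand gene and the other beyond it, in 60 neither end lay in a same-strand gene but at least 1 lay in a gene of the opposite strand (antisense), and in 76 neither end lay in a gene of either strand (intergenic).

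The cells came from the subcutaneous fat of 3 male Chinese Erhualian piglets 5 days old, a native breed rich in fat, and were studied at 4 stages of adipogenic differentiation. D0 was the confluent culture, D2 followed 2 days with dexamethasone, 3-isobutyl-1-methylxanthine and insulin, D4 followed a further period with insulin alone, and D8 was reached in growth medium without the hormones. The RNA of the 3 piglets was mixed in equal parts, and 1 rRNA-depleted, strand-specific library was made at each stage. With no second library of a stage, a difference between stages cannot be told apart from one between libraries, and no p-value was computed. All intervals therefore cover the counting error of reads only. Where 4 values follow each other below, they are those of D0, D2, D4 and D8 in that order. The adipocyte markers (PPARG, CEBPA, ADIPOQ, FABP4, PLIN1, LPL, LIPE and CIDEC) added up to 122, 491, 1747 and 2076 FPKM from D0 to D8. Of these, FABP4 (853 FPKM at D4 and 1557 at D8) and CIDEC (5.01 and 54.6) rose from D4 to D8. PPARG, CEBPA, ADIPOQ, PLIN1, LPL and LIPE were lower at D8 than at D4. The preadipocyte or fibroblast markers found in the table (PDGFRA, THY1, COL1A1 and DCN) added up to 594, 837, 760 and 583 FPKM. The leukocyte, endothelial and erythroid lists never exceeded 7.98, 2.59 and 0.271 FPKM in sum. The muscle list added up to 3438, 366, 232 and 2823 FPKM, mostly from ACTA2, which fibroblasts in culture also make. DES (436, 37.7, 4.05 and 35.7 FPKM) and CNN1 (94.3, 4.22, 2.39 and 24.2) were also highest at D0. MYH11 stayed at or below 0.633 FPKM. The part of these muscle genes in the results was not tested.

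A circRNA is a closed loop made when a splice donor is joined back to an acceptor that lies before it in the transcript. Most circRNAs come from exons inside 1 gene, so a circle whose ends do not lie within 1 annotated gene can mark a transcript that reads from one gene into the next, a start or end that lies outside the annotated gene, a transcript not yet annotated, or an alignment between similar sequences. Such circles are counted by the reads that cross the back-splice junction. SRPBM is that count scaled by the mapped reads of the library, and it does not depend on the length of the circle. The value of 1 junction read was 6.42, 7.27, 5.94 and 8.40 SRPBM, and every circRNA listed above 0 had at least 2 reads in that library. A value of 0 was taken to allow a level of up to 3 reads, which is 19.3, 21.8, 17.8 and 25.2 SRPBM. Since 1 read would also be listed as 0, the level could lie higher. A fold given below as at least some value against a library at 0 sets that 0 to 3 reads. It leaves out the counting error of the other library, so a smaller fold is possible. For ssc_circ_0005632, D8 against D4 is 16.5-fold by this rule, and its interval begins at 13.1-fold.

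The circRNAs without a same-strand host were a small and sparse share of the junction reads. They held 1192 of 53207 junction reads at D0 (2.24%, 95% Wilson interval 2.12 to 2.37), 1059 of 43989 at D2 (2.41%, 2.27 to 2.55), 1189 of 51074 at D4 (2.33%, 2.20 to 2.46) and 733 of 37480 at D8 (1.96%, 1.82 to 2.10). The share was lowest at D8, where its interval did not overlap those of D2, D4 and D0. Detected were 91, 91, 128 and 94 of the 265 (34.3%, 34.3%, 48.3% and 35.5%), against 45.7%, 41.7%, 48.5% and 45.9% of all circRNAs. D4 was the highest for both, and it also had the most mapped reads. Of the 265, 185 (69.8%) were detected in 1 library only, against 55.8% of the 8358 circRNAs inside a same-strand gene, and 41 (15.5%) were detected in at least 3 libraries, against 25.5%. The antisense class was the sparsest, with 50 of 60 (83.3%) in 1 library only and 4 of 60 in at least 3. The class past the end of 1 gene came nearest to the hosted circRNAs, with 59.5% in 1 library only.

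**Figure D1:**
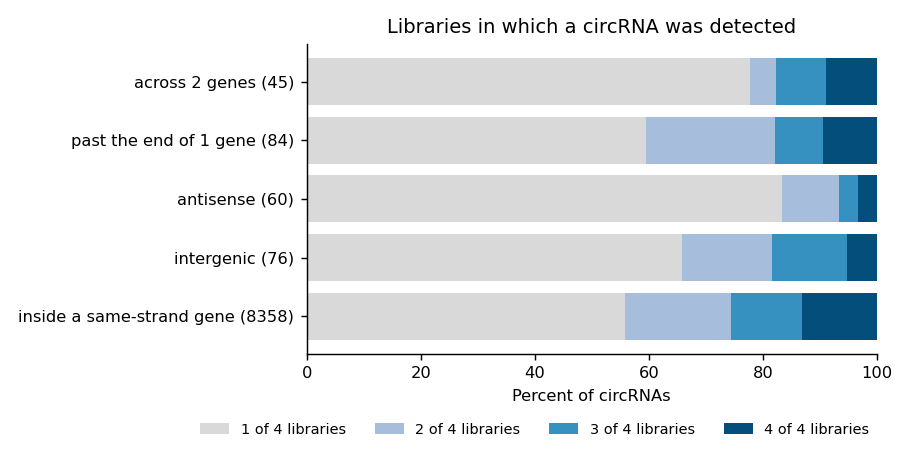
Bars give the percent of circRNAs detected in 1, 2, 3 or all 4 libraries, by position class, with the number of circRNAs in brackets. The share found in 1 library only was 77.8% across 2 genes, 59.5% past the end of 1 gene, 83.3% for antisense, 65.8% for intergenic and 55.8% for circRNAs inside a same-strand gene.

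The classes differed in genomic span, the distance between the 2 ends. The median was 50566 bases for circRNAs across 2 genes, 14143 past the end of 1 gene, 5759.5 for intergenic and 1814 for antisense, against 8129 for hosted circRNAs. None of the 45 circRNAs across 2 genes spanned under 1000 bases and 13 (28.9%) spanned over 100000, against 9.37% and 1.14% of the hosted. In contrast, 22 of the 60 antisense circRNAs (36.7%) spanned under 1000 bases and none over 100000. The class across 2 genes had to be long, since its ends reach into separate genes, and this part of the difference follows from the rule.

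**Figure D2:**
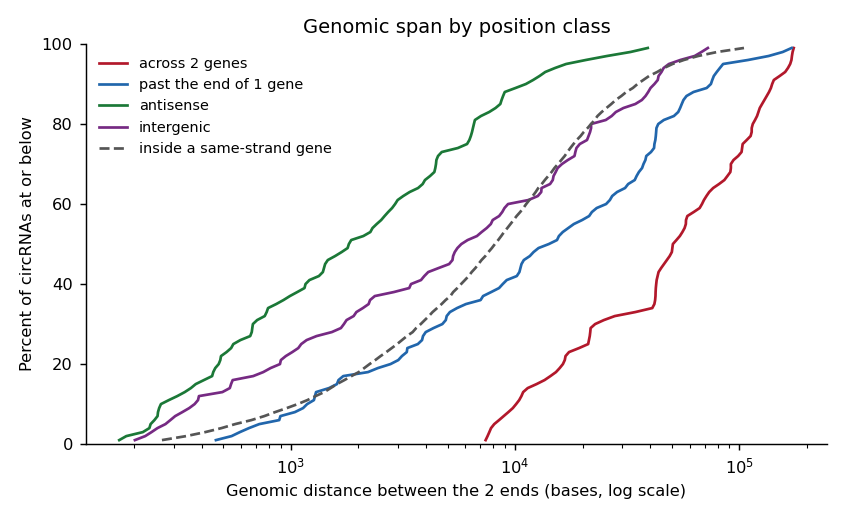
Each line gives, for 1 position class, the percent of circRNAs (y axis) whose ends lie at or below a given distance apart in bases (x axis, log scale), drawn at each percentile, with circRNAs inside a same-strand gene dashed. The line across 2 genes lies to the right of the others (median 50566 bases), and the antisense line to the left (median 1814 bases).

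The 265 circRNAs lay at 195 separate loci, and 107 of them shared 37 loci with at least 1 other. The same start or end base as another circRNA of the same strand was seen for 100 of the 265 (37.7%) and for 58.1% of the hosted circRNAs. An end was shared with a hosted circRNA by 8 of the 45 across 2 genes and 15 of the 84 past the end of 1 gene, and by none of the antisense or intergenic ones. Circles of 1 locus share sequence and are therefore not independent of each other.

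Summed over a class, the circRNAs across 2 genes had 1630, 1664, 1751 and 613 SRPBM. The D8 sum was 0.350 times that of D4 (interval 0.267 to 0.454), while the hosted circRNAs at D8 were at 1.04 times D4 (1.03 to 1.06). Without the member with the most reads, which was at 0 at D8, the sums were 1117, 1133, 1365 and 613, and D8 was still the lowest. In such bulk samples, fewer cells of a type and less RNA per cell cannot be told apart. The class past the end of 1 gene varied least, from 2503 SRPBM at D0 to 2789 at D8. Antisense circRNAs had 1701, 1206, 1104 and 1185 SRPBM, highest at D0, and the interval of the D8 to D0 ratio was 0.564 to 0.858. The intergenic sums were 1816, 2281, 1662 and 1571 SRPBM, with the highest at D2.

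**Figure D3:**
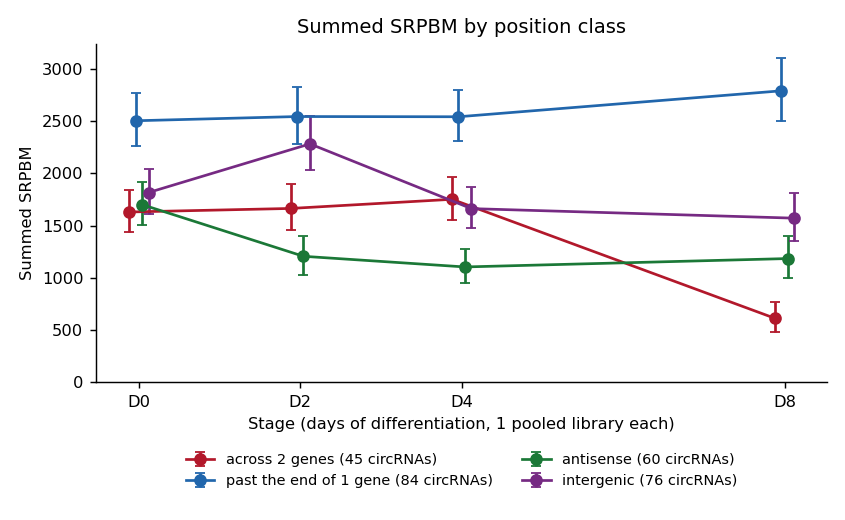
Points give the summed SRPBM of each position class (y axis) at D0, D2, D4 and D8 (x axis), 1 pooled library each, with 95% exact Poisson intervals of the summed junction reads. Circles across 2 genes lie between 1630 and 1751 SRPBM up to D4 and at 613 at D8, while those past the end of 1 gene lie between 2503 and 2789.

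Few circles carried most reads of a class. The 10 with the most reads held 74.4% of the junction reads across 2 genes, 57.5% past the end of 1 gene, 73.1% of the antisense and 54.5% of the intergenic reads. The class sums above thus turn on the circles described next, and all positions are on the pig assembly Sscrofa11.1.

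The most abundant circle across 2 genes was ssc_circ_0008516 on chromosome X (83888436 to 83895678, plus strand), which ran from GPRASP2, a sorting protein of G protein-coupled receptors, into BHLHB9, 3078 bases downstream. It had 513, 530, 386 and 0 SRPBM, from 80, 73, 65 and 0 junction reads. The first 3 libraries were alike and D8 stood apart, at least 20.4-fold lower than D0 and at least 15.3-fold lower than D4. Both genes were still listed at D8, GPRASP2 with 2.14, 1.68, 2.01 and 1.66 FPKM and BHLHB9 with 4.46, 5.01, 4.77 and 3.37 FPKM from D0 to D8. A second circle to the same end in BHLHB9, ssc_circ_0008515, had 9 reads at D4 and none elsewhere. Of 291 circRNAs in all that had at least 20 reads in each of 3 libraries, 27 (9.28%) had 0 in the fourth, so that a 0 beside high values was not particular to this circle.

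On chromosome 16, ssc_circ_0007798 (43984409 to 44011065, minus strand) joined CENPK, a centromere protein, with ADAMTS6, a secreted metalloproteinase, whose gene bounds overlap on the same strand. Its level was 225, 334, 83.1 and 58.8 SRPBM. D4 and D8 lay below D0 and D2, with D8 3.82-fold below D0 (interval 1.67 to 10.2). FPKM of CENPK was 12.3, 3.85, 5.44 and 7.17 and that of ADAMTS6 was 7.05, 1.45, 1.30 and 2.78, so both genes were already lower at D2, when the circle was not. Both ssc_circ_0007795 and ssc_circ_0007793 shared its end in CENPK and had 17 and 3 reads in all.

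The circle with the largest rise by size was ssc_circ_0005632 on chromosome 12 (21027981 to 21077943, plus strand), between the genes LOC100737113 and LOC110255312. It had 0, 109, 416 and 0 SRPBM, from 0, 15, 70 and 0 junction reads. D4 was at least 21.6-fold above D0 and 3.81-fold above D2 (interval 2.16 to 7.17), and D8 was at least 16.5-fold below D4. FPKM of LOC100737113 was 5.19, 10.8, 29.4 and 41.7 and that of LOC110255312 was 6.16, 13.5, 25.9 and 44.0, with D8 the highest for both genes, so the circle was at 0 where the genes were highest.

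Highest at D2 was ssc_circ_0003194 on chromosome 6 (18661543 to 18672093, plus strand), from LOC102166944 to MT1A, a metallothionein that binds metal ions. It had 0, 167, 35.6 and 0 SRPBM. D2 was at least 8.68-fold above D0, and D4 was 4.69-fold below D2 (interval 1.86 to 14.1). Here both genes were also highest at D2 and next at D4: MT1A had 0.459, 11.3, 6.01 and 2.56 FPKM, and LOC102166944 had 0.526, 22.0, 5.19 and 2.23 FPKM. Whether an alignment between similar sequences gave this junction was not tested.

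In the class I region of the major histocompatibility complex on chromosome 7, whose SLA genes encode the proteins that present peptides to T cells, 6 circles lay between 22826610 and 22974508 on the plus strand. The one with the most reads, ssc_circ_0003661, ended in SLA-2 and began where SLA-1 and SLA-5 overlap, and its level stayed within 2-fold, with 70.6, 72.7, 107 and 84.0 SRPBM. A nearby circle into SLA-2, ssc_circ_0003664, had 154 SRPBM at D0 from 24 reads and 0 in the other 3 libraries, so that D2 was at least 7.07-fold below D0. Another, ssc_circ_0003659, shared the end of ssc_circ_0003661 and had 32.1, 0, 59.4 and 67.2 SRPBM. SLA-1 itself had 31.1, 41.9, 42.8 and 36.2 FPKM. The class I genes resemble each other closely, so reads of one can align to another, and these 6 circles are uncertain for that reason. In the class II region of the same chromosome, ssc_circ_0003675 (24990298 to 25033067, minus strand) lay between LOC100155975 and SLA-DOB and was seen at D8 alone, with 118 SRPBM from 14 reads. SLA-DOB was at or below 0.167 FPKM in all 4 libraries.

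Across all 45 circles of this class, 33 different gene pairs were joined. In 41 (91.1%) no other same-strand gene lay between the pair, in 9 the pair overlapped, and where it did not the median gap was 34944.5 bases and the largest 157737. Like ssc_circ_0003661, ssc_circ_0007158 on chromosome 14 (7274779 to 7366524, minus strand), between LOC100624226 and LOC100737977, stayed within 2-fold, with 116, 138, 89.1 and 101 SRPBM. A hosted circle that shared its end in LOC100737977, ssc_circ_0007166, had 70.6, 72.7, 101 and 42.0 SRPBM. Outside the naming rule and chosen after their values were seen, circles between named genes included RAB8B to TPM1 (ssc_circ_0000042, 13 reads at D0 and none later) and MINOS1 to NBL1 (ssc_circ_0003439, 10 reads at D4 and none elsewhere).

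**Figure D4:**
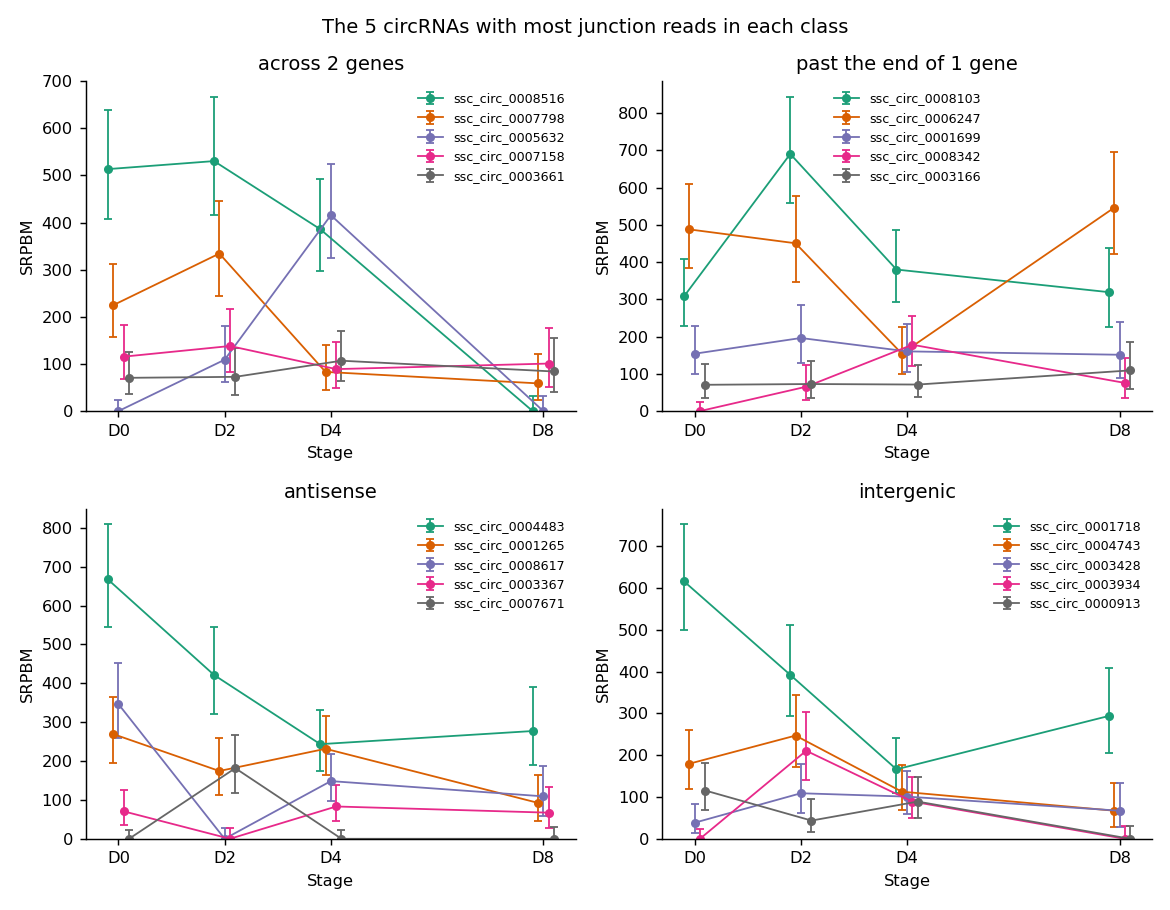
Each panel gives the SRPBM (y axis) of the 5 circRNAs with the most junction reads in 1 position class at D0, D2, D4 and D8 (x axis), 1 pooled library each, with 95% exact Poisson intervals. The circles ssc_circ_0008516 and ssc_circ_0005632 end at 0 at D8, after 386 and 416 SRPBM at D4, and ssc_circ_0004483 and ssc_circ_0001718 start highest, at 667 and 616 SRPBM at D0.

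Of the 84 circles past the end of 1 gene, 37 reached beyond the 5′ side of the gene and 47 beyond the 3′ side, and the former held more reads, 947 against 553. The overhang ranged from 2 to 169275 bases. It was at most 100 bases for 16 circles, at most 1000 for 31 and at most 10000 for 58. A circle 2 bases past an annotated gene differs from a hosted one only by where the annotation ends, and 30 of the 8358 hosted circRNAs had an end at most 100 bases inside the bounds. The outer end of 11 of the 84 lay in a newly assembled lncRNA.

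The circle with the most reads of all 265 belonged here. It was ssc_circ_0008103 on chromosome 17 (8466081 to 8469366, plus strand), which began 18 bases before FAT1, an atypical cadherin of cell contacts. Its level was 308, 690, 380 and 319 SRPBM. D2 was the high library, 2.24-fold above D0 (interval 1.57 to 3.24), and the intervals of the other 3 overlapped. FAT1 itself was highest at D0, with 36.5 FPKM, and had 23.8, 25.3 and 24.3 FPKM after.

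The next was ssc_circ_0006247 on chromosome 13 (168849106 to 168855082, plus strand), whose start lay 2727 bases before the lncRNA gene LOC106504207. It had 488, 450, 154 and 546 SRPBM. D4 was the low library, 3.16-fold below D0 (interval 2.0 to 5.14), and D8 was 3.54-fold above D4 (2.21 to 5.81). FPKM of LOC106504207 was 3.54, 1.07, 1.04 and 2.20, lower at D2 as well as D4. The other 4 circles of the locus began at the same base and ended further into the gene, and the 5 added up to 642, 480, 232 and 605 SRPBM. A hosted circle with the same end, ssc_circ_0006253 (168854244 to 168855082), had 404, 298, 190 and 101 SRPBM and was lowest at D8, where ssc_circ_0006247 was highest.

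Among the other circles that began just outside a gene, ssc_circ_0001699 on chromosome 3 (2814416 to 2831893, plus strand) started 2 bases before SDK1, a cell adhesion protein, and hardly changed, with 154, 196, 160 and 151 SRPBM. SDK1 was at 0.557, 0.854, 0.913 and 0.398 FPKM. On the 3′ side, ssc_circ_0003166 (chromosome 6, 168716698 to 168717962, minus strand) ended 84 bases past YBX1, a protein that binds RNA and DNA, and had 70.6, 72.7, 71.2 and 109 SRPBM, while YBX1 had between 384 and 496 FPKM. These 2 circles were not at least 2-fold apart in any comparison.

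Others changed more. On chromosome 18, ssc_circ_0008342 (9133515 to 9140672, minus strand) ended 1844 bases past NDUFB2, a subunit of complex I of the respiratory chain, and had 0, 65.4, 178 and 75.6 SRPBM. D4 was at least 9.25-fold above D0, and D8 was 2.36-fold below D4 (interval 1.09 to 5.64), while NDUFB2 lay between 132 and 172 FPKM. On chromosome 15, ssc_circ_0007483 (46294098 to 46315302, plus strand) began 12869 bases before SNX25, a sorting nexin, and had 51.3, 0, 184 and 16.8 SRPBM. It was at least 8.44-fold higher at D4 than at D2, and its 2 reads at D8 gave a level 11-fold below D4 (interval 2.79 to 94.5). SNX25 lay between 3.62 and 5.92 FPKM. On chromosome 13, ssc_circ_0006613 (69223492 to 69228869, minus strand) began 5063 bases before TMCC1, a membrane protein of the endoplasmic reticulum. It had 0, 50.9, 89.1 and 42.0 SRPBM, and TMCC1 had 5.89 FPKM at D0 and 22.5 at D4.

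Some circles past a gene came and went in single libraries. On chromosome 3, ssc_circ_0001760 (39153031 to 39163533, minus strand) reached 8411 bases past the 3′ end of THOC6, a subunit of an mRNA export complex. It had 38.5, 102, 0 and 50.4 SRPBM, and D4 was at least 5.71-fold below D2. High at D8 were 2 circles: ssc_circ_0000566 on chromosome 1 (246092177 to 246122977, minus strand) had 0, 0, 17.8 and 176 SRPBM and lay inside the newly assembled lncRNA MSTRG.14755, whose FPKM was 0.268, 0.270, 0.976 and 1.05. The other, ssc_circ_0002556, reached from KRT5, a keratin of the intermediate filaments, over 4 genes to its 3′ side and had 126 SRPBM at D8 from 15 reads and none before. KRT5 had 44.4, 107, 180 and 275 FPKM. A circle from KRT6A to the same end in KRT5, ssc_circ_0002557, had 8 reads at D4 alone. Keratin genes of a cluster resemble each other, so that the ends of both are uncertain.

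Lower after D0 were ssc_circ_0007642 and ssc_circ_0007643 on chromosome 15, which share the end 84225453, 1323 bases past the lncRNA LOC110257116, and start at 84220498 and 84220501. The first had 122, 36.3, 23.7 and 25.2 SRPBM and the second 96.3, 0, 0 and 42.0. Both were highest at D0. On chromosome 9, ssc_circ_0004781 (571438 to 613151, plus strand), which began in LOC110262312 and ended 40282 bases past it, had 109, 94.5, 17.8 and 84.0 SRPBM, with the 3 reads at D4 6.13-fold below D0 (interval 1.77 to 32.6).

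Of the 60 antisense circles, 54 (90%) had both ends in the same opposite-strand gene, and 47 different genes were opposed. Of these 47 genes, 13 (27.7%) had at least 100 FPKM at D0, against 3.05% of all 19276 annotated mRNA and lncRNA genes and 3.86% of the 3370 genes that hold a hosted circRNA. The medians at D0 were 11.4 FPKM for the opposite genes and 6.87 for the genes with a hosted circRNA. At D8 the shares were 25.5%, 2.84% and 3.50%. The genes opposite the 4 circles with the most reads were low instead: DNM3, LOC102164761 and LOC110255260 were at or below 0.285, 0.261 and 0.164 FPKM, and LOC102163816 at or below 3.19. Whether reads of the sense transcript took part in these junctions was not tested.

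One antisense circle led the class. It was ssc_circ_0004483 on chromosome 9 (114529701 to 114533673, minus strand), inside DNM3 on the opposite strand, a dynamin that pinches off membrane vesicles. It had 667, 421, 243 and 277 SRPBM, from 104, 58, 41 and 33 junction reads. D0 was the highest and D4 and D8 the lowest, 2.74-fold (interval 1.89 to 4.04) and 2.41-fold (1.61 to 3.68) below D0, and the interval of D4 overlapped that of D8. The strand opposite to DNM3 is known to be transcribed into a noncoding RNA that carries miR-199a and miR-214. Here MIR199A-1 lay 110 bases from the circle and MIR214 1600 bases from it, both on its strand. FPKM of MIR199A-1 was 47.0, 115, 73.8 and 61.3, that of MIR214 38.1, 35.4, 40.8 and 40.3, and that of DNM3 between 0.149 and 0.285. The miRNA rows are short and lie outside the circle, so these values do not give the level of its own stretch.

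The second, ssc_circ_0001265 on chromosome 2 (6793378 to 6794056, minus strand), lay opposite the lncRNA gene LOC102163816 and inside MSTRG.18003, a newly assembled lncRNA of its own strand. It had 270, 174, 232 and 92.4 SRPBM, and D8 was 2.92-fold below D0 (interval 1.48 to 6.28). FPKM of MSTRG.18003 was 3.86, 9.85, 10.2 and 5.49. The 3 other circles opposite the same gene lay in MSTRG.17987, which had 593, 1553, 1838 and 582 FPKM. On an unplaced scaffold, ssc_circ_0008617 (27615 to 36179, plus strand), with 1 end opposite the lncRNA LOC102164761, had 347, 0, 148 and 109 SRPBM. D2 stood apart, at least 15.9-fold below D0 and at least 6.81-fold below D4. On chromosome 6, ssc_circ_0003367 (58280940 to 58287583, minus strand) was at 0 in the D2 library too, with 70.6 SRPBM at D0, 83.1 at D4 and 67.2 at D8.

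The fifth antisense circle by reads, ssc_circ_0007671 on chromosome 15 (93629638 to 93674804, plus strand), lay opposite COL5A2, a fibrillar collagen chain with 670, 466, 587 and 790 FPKM, and had 182 SRPBM at D2 from 25 reads and 0 in the other 3 libraries. Its D2 level was at least 9.44-fold above D0 and at least 10.2-fold above D4. The gene with the most antisense circles, chosen after its values were seen, was its neighbour COL3A1, another fibrillar collagen chain, with 6 circles and 36 reads. They had 0, 12, 4 and 20 reads, while COL3A1 had 491, 1286, 2058 and 1624 FPKM. D0 was the lowest for both. D4 was the highest for COL3A1, while the circles had fewer reads at D4 than at D2 and D8.

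Of the 76 intergenic circles, 22 (28.9%) lay inside a newly assembled lncRNA of the same strand, and these held 325 of the 1064 intergenic junction reads. The median distance to the nearest annotated same-strand gene was 27563.5 bases. It was at most 1000 bases for 3 circles, at most 10000 for 17 and at most 50000 for 48. Intergenic here means outside the genes listed for this series. Of all 265 circRNAs, 6 (2.26%) lay inside a RefSeq gene, of either strand, that was not among those listed.

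The leading intergenic circle, ssc_circ_0001718 on chromosome 3 (28903672 to 28904794, minus strand), had 616, 392, 166 and 294 SRPBM, from 96, 54, 28 and 35 reads. D0 was the highest library and D4 the lowest, 3.71-fold apart (interval 2.41 to 5.87). The nearest gene of its strand, the lncRNA LOC110259927, lay 3165 bases away and also had its highest value at D0, with 1.63, 0.490, 0.776 and 0.426 FPKM. MIR365-1, inside that gene, was at or below 0.332 FPKM.

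The circle ssc_circ_0004743 on chromosome 9 (42036668 to 42051840, plus strand) lay in the newly assembled lncRNA MSTRG.86487 and had 180, 247, 113 and 67.2 SRPBM, with D8 2.67-fold below D0 (interval 1.19 to 6.79). FPKM of MSTRG.86487 was 1.10, 0.977, 1.54 and 0.840. Its locus held 6 circles of 3 classes, which together had 282, 276, 184 and 151 SRPBM. On chromosome 2, ssc_circ_0000913 (100380422 to 100396011, minus strand) in MSTRG.24891 had 116, 43.6, 89.1 and 0 SRPBM, and the lncRNA 1.42, 1.15, 1.01 and 0.636 FPKM. D8 was the lowest for each of these 2 circles and their lncRNAs.

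On chromosome 7, ssc_circ_0003934 (78551574 to 78551856, minus strand), a short circle 181 bases from PARP2, a DNA repair enzyme, had 0, 211, 89.1 and 0 SRPBM, with D2 at least 10.9-fold above D0. PARP2 had 8.57, 10.9, 12.6 and 8.75 FPKM, so D0 and D8 were the low libraries for both, but PARP2 was highest at D4 and the circle at D2. Together with ssc_circ_0003933, the other circle of its locus, it had 0, 211, 89.1 and 33.6 SRPBM. On chromosome 6, ssc_circ_0003428 (74829110 to 74832543, plus strand), 14433 bases from RSC1A1, had 38.5, 109, 101 and 67.2 SRPBM, and D2 was 2.83-fold above D0 (interval 1.04 to 8.90).

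Some intergenic loci held several circles. On chromosome 4, ssc_circ_0002281 and ssc_circ_0002280 began at 39934333 and ended at 39947459 and 39947397, with SDC2 the nearest same-strand gene at 56159 bases from the first. The first had 38.5, 109, 0 and 42.0 SRPBM and the second 109, 29.1, 23.7 and 0, so that the high library was D2 for one and D0 for the other. On chromosome 12, 5 circles lay between 35952253 and 36034176 on the plus strand, after CLTC, the clathrin heavy chain, and before MIR21. They added up to 199, 36.3, 202 and 160 SRPBM. Of these, ssc_circ_0005723 had 141, 0, 47.5 and 50.4 SRPBM and ssc_circ_0005726 had 57.8, 0, 53.4 and 84.0, both at 0 in the D2 library. On chromosome 16, 4 circles between 50890851 and 50984331 in MSTRG.141125 added up to 57.8, 182, 166 and 0 SRPBM, while the lncRNA had 3.94, 2.21, 1.16 and 3.77 FPKM and was lowest at D4. A further circle in the same lncRNA, ssc_circ_0007838 (50845684 to 50867517), did not overlap these and had 79.9 SRPBM at D2 alone.

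The stages were then compared over all circRNAs with at least 10 junction reads in 1 of the 2 libraries, with counts under 3 reads set to 3, and a ratio of at least 2 was counted as higher or lower. Only 39 to 50 of the 265 passed this minimum in a comparison, and 71 (26.8%) had 10 reads in any library, against 33.1% of the hosted. A circle that passes through 1 library and is at 0 in the other has to differ, so the counts are read only against all circRNAs.

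From D0 to D2, 32 of 48 tested circles were at least 2-fold apart (background over all 2142 circRNAs 63.6%), 16 higher (background 26.7%) and 16 lower (background 37.0%). Of the 15 intergenic ones, 8 were higher and 4 lower, and of the 6 antisense ones 1 was higher and 3 lower. At 0 in 1 of the 2 libraries were 4 of these 8, 2 of these 4 and every called antisense circle. The read minimum fixed the direction of such circles. Among the higher intergenic ones, ssc_circ_0007838, ssc_circ_0007840 and ssc_circ_0007842 all lay in MSTRG.141125. From D2 to D4, 35 of 50 were apart (background 60.4%), 16 higher (30.0%) and 19 lower (30.4%), and of the 16 intergenic ones 3 were higher and 9 lower. These 2 comparisons share the D2 library, and 5 of the 9 were at 0 at D4 and passed the minimum through D2 alone, which fixed their direction. From D4 to D8, 27 of 45 were apart (background 55.0%), 9 higher (21.1%) and 18 lower (33.9%). This balance turned with the read minimum: with none, 32 were higher and 20 lower, and over all circRNAs 1281 were higher and 721 lower.

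Between D0 and D4, 36 of 50 were apart (background 67.5%), 18 higher (28.5%) and 18 lower (39.0%). Between D0 and D8, 27 of 39 were apart (background 63.6%), 6 higher (19.9%) and 21 lower (43.8%). With no read minimum the excess of lower circles was gone, with 31 higher and 30 lower, against 1293 and 1135 over all circRNAs. Here too depth tilts both balances, since 3 reads stood for 25.2 SRPBM at D8 against 19.3 at D0. The comparisons with D0 share that library. The median log2 ratio was 0.04 from D0 to D2, -0.07 from D2 to D4, -0.50 from D4 to D8, 0.04 from D0 to D4 and -1.20 from D0 to D8, against -0.34, -0.05, -0.24, -0.38 and -0.70 over all circRNAs tested. In 22 of the 32 called from D0 to D2 (68.8%) 1 library was at 0, against 59.1% of all circRNAs called, and in the other comparisons the share was 62.9% to 70.4%, against 52.8% to 58.2%. Counts over 39 to 50 circles are coarse, and with 1 library a stage none of these differences could be set against the spread between replicates.

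**Figure D5:**
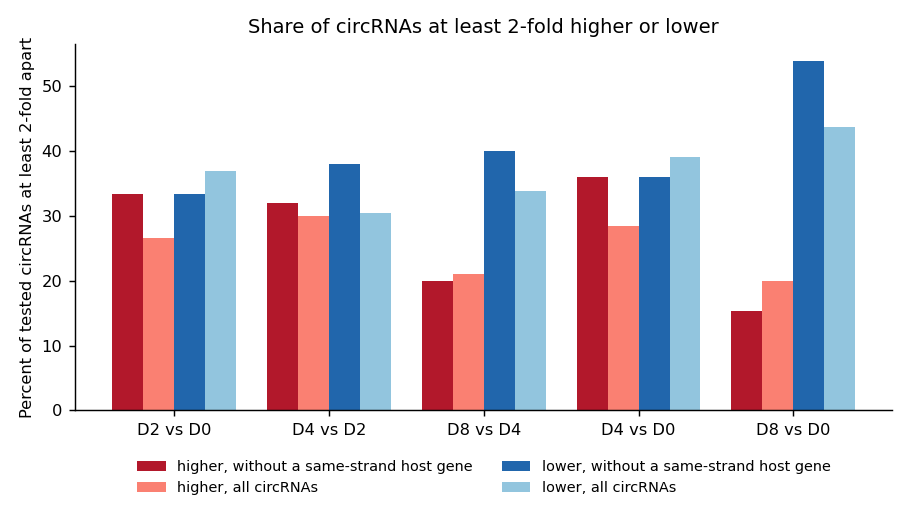
Bars give the percent of tested circRNAs that were at least 2-fold higher or lower in each comparison of 2 libraries, for circRNAs without a same-strand host gene and for all circRNAs. From D0 to D8, 15.4% of the former were higher and 53.8% lower, against 19.9% and 43.8% of all circRNAs.

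Few genes that act on circRNAs, or that end transcripts, were at least 2-fold apart under an FPKM filter. Of 27 genes for circRNA formation, export and decay, 22 had at least 1 FPKM in at least 3 libraries. On the scale of log2(FPKM + 0.01), MBNL1, a splicing factor that binds its own circle, was at -1.20 and DDX39A, a helicase of circRNA export, at -1.35 from D0 to D2, the only 2 of the 22 at least 2-fold apart (background over 9399 genes 16.9%). From D0 to D4, ADAR, which edits double-stranded RNA, was higher by 1.11 and DDX39A lower, at -1.03 (background 19.3%). None of the 22 was at least 2-fold apart from D4 to D8 (background 14.5%) or from D0 to D8 (background 7.35%). QKI, which promotes circle formation, had 25.6, 13.4, 14.1 and 19.4 FPKM.

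Of 22 genes for 3′ end formation and termination, 21 passed the same filter. None was at least 2-fold apart from D0 to D2, from D2 to D4 (background 5.12%) or from D0 to D8. CSTF2T, a subunit of the cleavage stimulation factor, was higher by 1.03 from D0 to D4 and lower, at -1.04, from D4 to D8, and CPSF7 of the cleavage factor was lower, at -1.07, from D4 to D8. For D2 against D0, D4 against D2, D8 against D4, D4 against D0 and D8 against D0, in that order, the median log2 ratio was 0.07, 0.13, -0.33, 0.13 and -0.15 for this list and -0.25, 0.17, -0.39, 0.04 and -0.35 for the circRNA list, against -0.02, 0.09, -0.21, 0.06 and -0.18 over all 9399 genes.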

How the data were processed

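RNA of subcutaneous preadipocytes was pooled from 3 piglets into 1 library for each of D0, D2, D4 and D8. The authors aligned reads to Sscrofa11.1 with HISAT2 2.0.5 and deposited FPKM of genes (fragments scaled by transcript length and mapped fragments). They called circRNAs with BWA-MEM and CIRI (at least 2 junction reads) and deposited SRPBM, junction reads scaled by mapped reads, in the same column. The depth was read from the values: 100% of SRPBM values were whole multiples (tolerance 0.02) of 1 step per library, which gave junction reads. Hosts were the 19276 protein_coding and lncRNA genes listed, and 2531 newly assembled lncRNAs were not counted as hosts. Of 22944 genes, 20259 matched RefSeq in symbol, start and end. The study tested 2 libraries with DEGseq. Here ratios were used, without a p-value, with exact Poisson, exact binomial and Wilson intervals (95%) in Python 3.11.15, numpy 2.4.6, pandas 2.3.3 and scipy 1.17.1, tested on simulated data. The genes and circRNAs named were the 5 with the most reads in each class, the 3 largest rises and falls of each comparison, and those sharing an end or gene with them. The members and gene lists were chosen with earlier results of these data known. Alternatives were other host genes, gene bounds, scalings, read minimums, folds and pseudocounts. Gene names turned into dates (24) were left as they were. For the genes of circRNA formation, export and decay, those at least 2-fold apart from D2 to D4 under the FPKM filter are not reported here.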

Additional observations from a re-analysis of the deposited data

How the results depend on the processing

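No paired analysis was possible because each stage had 1 pooled library, and none could be left out for the same reason. Of the values recomputed under other settings, the number of circRNAs without a same-strand host was 265, and 232 with every other annotated feature as a host, 237 with newly assembled lncRNAs also as hosts, 359 with protein-coding hosts only, 195 with RefSeq bounds that ignore strand, and 249 with gene bounds widened by 100 bases. The use of newly assembled lncRNAs and of widened bounds, and the medians with scaling by the total of junction reads, were chosen after seeing the data. With every annotated feature as a gene, the intergenic class held 39 circles in place of 76. The share of junction reads at D4 was 2.17% over circRNAs with at least 5 reads.

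The counts of circles at least 2-fold apart moved with the read minimum. In the order D2 against D0, D4 against D2, D8 against D4, D4 against D0 and D8 against D0, they were 7, 11, 8, 10 and 10 with at least 20 reads and 61, 68, 52, 68 and 61 with no minimum. With SRPBM of at least 1 in at least 3 libraries they were 21, 21, 16 and 20 in the first 4 comparisons. With a 3-fold limit they were 22 for D4 against D2 and 17 for D8 against D0. The balance of direction moved too. For D8 against D4, 9 were higher and 18 lower, and 32 and 20 with no minimum, 8 and 8 with the SRPBM filter and 9 and 9 with a 3-fold limit. For D8 against D0, 6 were higher and 21 lower, and 31 and 30 with no minimum. For D4 against D0, 18 were higher and 18 lower, and 6 and 14 with the SRPBM filter. Fewer or more circles tested, or a higher limit, change the totals by construction. The depth of the libraries tilts the direction as well, since the floor and the minimum are set in reads. Scaling by junction reads kept each count within 1.5 times and moved the median log2 ratio to 0.21 for D4 against D0 and -1.08 for D8 against D0, and that of all circRNAs to -0.21 and -0.58. With no FPKM filter, the genes of circRNA formation at least 2-fold apart numbered 4, 4, 1, 6 and 3 in the order above, and with a pseudocount of 1 there was 1 for D4 against D0. With that pseudocount the 3′ end genes numbered 0 for D8 against D4 and 0 for D4 against D0. Of the log2 ratios of named circRNAs, 3 turned with scaling by junction reads, all near 0: ssc_circ_0001699 from -0.03 to 0.09 and ssc_circ_0003367 from -0.07 to 0.05 for D8 against D0, and ssc_circ_0003166 from -0.03 to 0.05 for D4 against D2. Junction reads per circle were few, which limits each ratio.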
